A study of Bos taurus with 8 samples.

Results

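DNMT1 (ENSBTAG00000002736) encodes the maintenance DNA methyltransferase, the enzyme that copies CpG methylation onto newly made DNA strands. It is 1 gene of the 27607 in the count files and 1 of the 15513 that passed the low-count filter. DNMT1 was selected on measured values of these same libraries, since it is in the study's tables for the contrast of blastocysts from prepubertal and pubertal heifers. Its levels and its group difference are therefore a description and carry no test.

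Each of the 8 libraries was made from total RNA of a pool of on average 5 blastocysts (Bos taurus), collected on day 7 of culture. The prepubertal group came from oocytes of Polish Holstein-Friesian heifers younger than 10 months that had neither a corpus luteum nor a dominant follicle, and the pubertal group from oocytes of heifers older than 15 months that had either. Oocytes of both groups were matured, fertilised with frozen semen of a single bull and cultured in vitro, and only embryos of good morphological grade were kept. Neither group received a treatment and no genetic change was made. The labels give the gender as female without saying whether this describes the donors or the embryos. Oocytes were pooled before maturation, so a library cannot be assigned to one donor, and RNA was of moderate integrity and amplified from a very small input.

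Samples 1, 2, 3 and 8 were taken as prepubertal and samples 4, 5, 6 and 7 as pubertal, as in the tables of the study. The sample labels instead place sample 4 with the prepubertal and sample 8 with the pubertal group, and values under those groups are given as well. Samples 3 and 7 stood apart from the other libraries in a different way. In sample 3, 45.4% of the uniquely mapped reads fell on genes, and in sample 7 52.1%, against 57.9% to 63.6% in the other 6 libraries. Reads were found on 24203 genes in sample 3 and on 24044 in sample 7, against 19503 to 20885 elsewhere. Between 18510164 (sample 7) and 29549143 (sample 4) reads per library were counted on genes.

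DNMT1 is recruited to hemimethylated DNA behind the replication fork, so its transcript is usually abundant in dividing cells. After fertilisation the mammalian embryo loses much of the methylation inherited from the gametes, while imprinted regions keep theirs, a process in which DNMT1 takes part. In cattle, methylation is lowest before the blastocyst stage and is then built up again, and an oocyte form and a somatic form of the enzyme are known in mammals. The counts are summed per gene and cannot separate such forms; RefSeq lists 7 transcripts for bovine DNMT1 (assembly ARS-UCD2.0, used here for names and neighbours only).

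In the RefSeq annotation, the span of DNMT1 overlaps 1 other gene, the microRNA gene MIR2454, and lies between the protein-coding genes EIF3G and S1PR2. The library kit keeps strand, but the strand setting of the counting is not given in the sources used here. How reads in the shared stretch were assigned is therefore not known here.

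DNMT1 was covered by many reads in every library. In the prepubertal group 2075 reads were counted in sample 1, 1813 in sample 2, 1380 in sample 3 and 1853 in sample 8. In the pubertal group there were 2439 in sample 4, 2541 in sample 5, 2905 in sample 6 and 1762 in sample 7. Counting error alone was thus small, between 1.86% in sample 6 and 2.69% in sample 3.

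By read count, which is not corrected for transcript length, DNMT1 ranked between place 1801 (sample 6) and place 2654 (sample 3) among the 27607 genes, with a median of 2220. Among genes with at least 1 read it stood between the percentiles 87.9 (sample 8) and 92.1 (sample 7), with a median of 89.1. Of the 15513 genes tested, 13.9% had a higher mean. DNMT1 was a well-detected transcript of the blastocyst in both groups, and its place high among the detected genes changed little from library to library.

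Scaled to counts per 1000000 gene counts (CPM), DNMT1 was at 83.6 in sample 1, 75.0 in sample 2, 68.6 in sample 3 and 74.6 in sample 8 of the prepubertal group. In the pubertal group it was at 82.5 in sample 4, 93.2 in sample 5, 103 in sample 6 and 95.2 in sample 7. Samples 5, 6 and 7 lay above every prepubertal library, whereas sample 4 lay just below the prepubertal sample 1, so the groups overlapped by that pair. The mean was 75.5 ± 6.15 CPM (SD, n = 4) in the prepubertal and 93.6 ± 8.58 CPM (SD, n = 4) in pubertal libraries, a ratio of 1.24. The distance between the means, 18.1 CPM, exceeded the SD within either group. In RNA from whole embryos, fewer cells expressing the gene and less RNA per cell cannot be told apart.

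**Figure D1:**
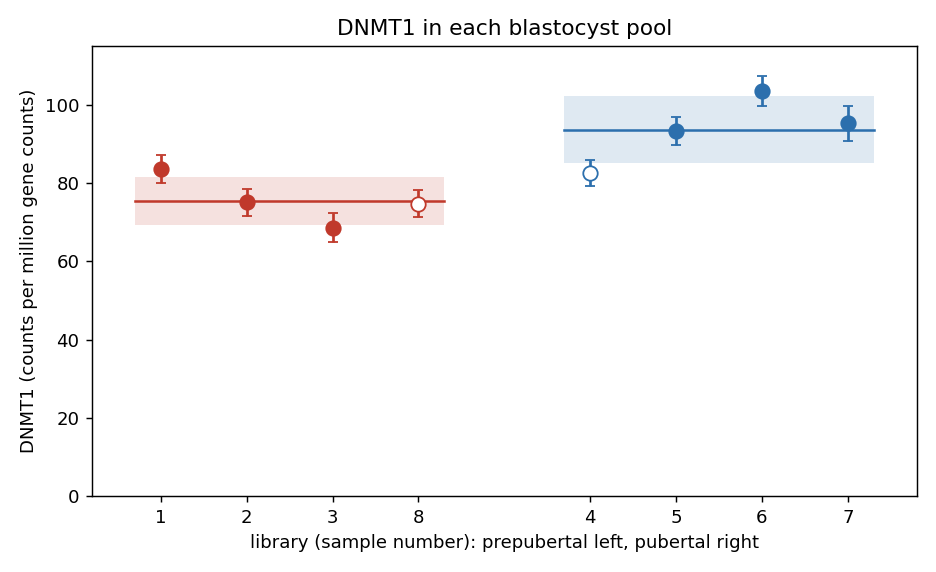
DNMT1 in CPM (y axis) for each library (x axis, sample numbers), prepubertal in red and pubertal in blue; bars are 95% Poisson intervals of the count, lines and bands are the group mean and SD (n = 4), and open circles are samples 4 and 8, whose labels name the opposite group. Samples 5, 6 and 7 lie above every prepubertal library, and sample 4 (82.5) lies just below sample 1 (83.6).

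The order of the libraries from lowest to highest was 3, 8, 2, 4, 1, 5, 7 and 6. The 95% Poisson intervals of neighbours overlapped for samples 3 and 8, 8 and 2, 4 and 1, 5 and 7, and 7 and 6. They did not overlap at the steps between samples 2 and 4 and between samples 1 and 5. These intervals cover counting error only, and copies of one molecule may have been counted more than once. Against the SD between pools of a group (6.15 and 8.58 CPM), only the step from sample 1 to sample 5 was larger than both, so the order of the other neighbours lies within that spread or at its edge.

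The lowest and highest library differed by a ratio of 1.51, from 68.6 CPM in sample 3 to 103 CPM in sample 6. Within the prepubertal group the highest library exceeded the lowest by 1.22 times and within the pubertal group by 1.25 times. The spread inside each group was therefore about as large, as a ratio, as the difference between the group means. No library of either group stood apart from its group in DNMT1 by the Dixon criterion; the largest gap to the next library, as a share of the group's range in TMM-scaled CPM, was 0.523 (sample 1) and 0.513 (sample 4).

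Scaling by TMM factors, which correct for differences in RNA composition, kept the order of the libraries except that samples 5 and 7 exchanged places. On that scale DNMT1 was at 85.3, 74.95, 65.6 and 72.9 CPM in samples 1, 2, 3 and 8, and at 81.6, 101, 104 and 93.3 CPM in samples 4, 5, 6 and 7. The group means were 74.7 ± 8.14 and 95.1 ± 10.2 CPM (SD, n = 4 each). Sample 1 again exceeded sample 4.

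The edgeR fit over all tested genes gave a log2 fold change of 0.35 for DNMT1, pubertal against prepubertal, with a standard error of 0.11. This corresponds to 1.27 times the prepubertal level. Of all tested genes, 25.9% had a larger absolute log2 fold change, and the median of the absolute values was 0.18. The SD of log2 CPM within groups was 0.16 for DNMT1 and its biological coefficient of variation 12.2%, against 25.7% over all genes. Since both measures depend on abundance, the 1000 tested genes nearest to DNMT1 in mean abundance are the closer reference. Among these, the median absolute log2 fold change was 0.11 and 4.5% of genes had a larger one than DNMT1, while the median SD within groups was 0.15 and 45.4% had a larger one. The spread of DNMT1 between pools was ordinary for its abundance, and its fold change, for which the gene was chosen, lay near the upper end.

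In edgeR, 0 of 15513 genes (0%) were called at an adjusted p under 0.05 with a fold change above 1.2, while 1681 had an unadjusted p under 0.05. DESeq2 called 128 of the 13933 genes with an adjusted p (0.919%) at the same thresholds. DNMT1 was not among them. Since the gene was chosen from this contrast, nothing is read from these shares. The study itself, which also used DESeq2 at these thresholds, lists DNMT1 among its differentially expressed genes. The source of this disagreement was not tested.

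With the groups of the sample labels, DNMT1 was at 77.4 ± 7.01 CPM (SD, n = 4) in the prepubertal and 91.6 ± 12.1 CPM (SD, n = 4) in pubertal libraries, a ratio of 1.18. The log2 fold change was then 0.27 with a standard error of 0.13. Sample 8 (74.6 CPM), as a pubertal library, would lie below samples 1, 2 and 4, so the overlap of the groups became wider. Under those groups edgeR called 0 of 15513 genes (0%), with 1134 at an unadjusted p under 0.05, and DESeq2 called 31 of 14920 (0.208%). DNMT1 was again not called.

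In the 6 libraries whose group is not in conflict, DNMT1 was at 75.7 ± 7.50 CPM (SD, n = 3) in the prepubertal and 97.3 ± 5.40 CPM (SD, n = 3) in pubertal libraries. The ratio was 1.28 and the log2 fold change 0.41 with a standard error of 0.13. Samples 1, 2 and 3 all lay below samples 5, 6 and 7 there. The direction of the DNMT1 difference was the same under both assignments and without the disputed libraries, and the size was smallest with the labels. All these comparisons share samples 1, 2, 3, 5, 6 and 7, and DNMT1 was chosen under the groups of the study's tables. They are therefore not separate checks, and neither the direction nor the size speaks for one assignment.

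Without samples 3 and 7, the libraries with few reads on genes, DNMT1 was at 77.7 ± 5.05 CPM (SD, n = 3) in the prepubertal and 93.0 ± 10.4 CPM (SD, n = 3) in pubertal libraries. The log2 fold change was 0.30 with a standard error of 0.13. With all 8 libraries and all uniquely mapped reads as the denominator, DNMT1 was at 42.4 ± 7.97 in the prepubertal and 56.3 ± 6.47 in the pubertal group. These are counts per 1000000 uniquely mapped reads (SD, n = 4 each), with a ratio of 1.33, and are not on the CPM scale above. The pubertal mean was higher with either denominator, but the overlapping pair changed: sample 7 (49.6) then lay just below sample 1 (49.9), and sample 4 (52.5) above it.

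**Figure D2:**
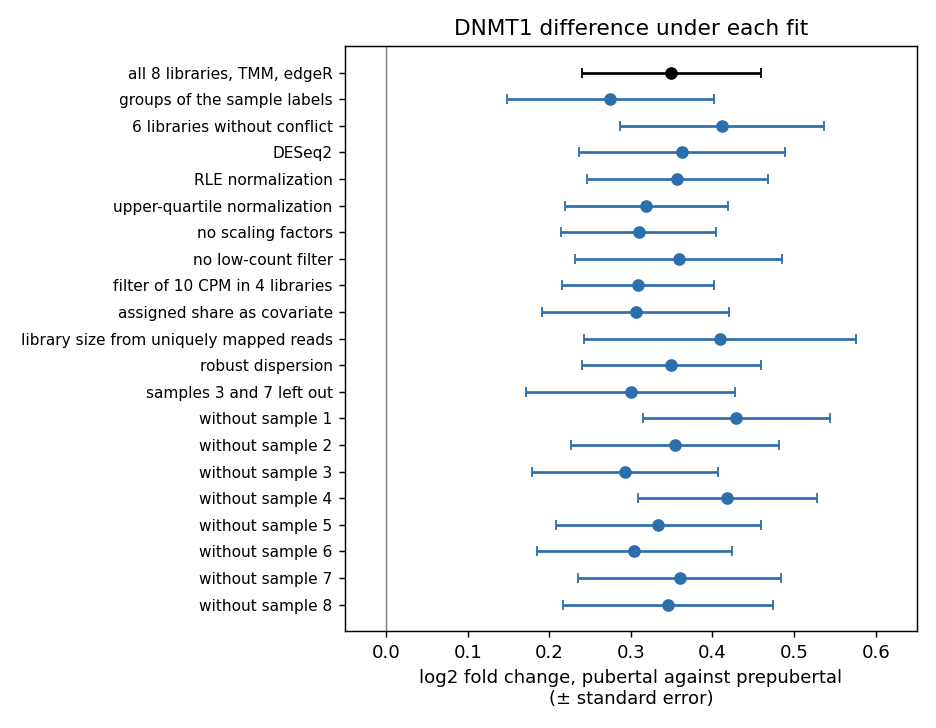
Log2 fold change of DNMT1, pubertal against prepubertal (x axis), with its standard error as bars, for the edgeR fit of all 8 libraries (black) and for each other grouping, scaling, filter, tool or left-out library (blue, y axis). Every value lies above 0, from 0.27 with the groups of the sample labels to 0.43 without sample 1.

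DNMT1 was set beside 4 technical measures of the libraries, as correlations of its log2 CPM over the 8 libraries, given as descriptions because these levels chose the gene. With the share of reads on genes, Pearson's r was 0.534 and Spearman's rho 0.452, and with the number of reads counted on genes they were 0.367 and 0.357. The number of genes with reads gave r = -0.288 and rho = -0.262, and the share of reads mapped to several loci r = -0.214 and rho = -0.119. After subtracting group means, r was 0.421, 0.179, -0.327 and 0.0973 in the same order. None of these relations with DNMT1 was strong over all 8 libraries.

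Leaving out the 2 libraries farthest from the median of each measure changed r to 0.569 for the share on genes, 0.919 for the reads on genes (without samples 7 and 4), -0.101 for genes with reads and 0.557 for reads at several loci. The relations with the number of reads and with reads at several loci thus depended on which libraries were included, and the part of depth and mapping in the levels of DNMT1 was not tested.

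DNMT1 also followed the main axis of variation among the libraries. The first principal component of the 500 most variable other genes held 32.4% of their variance, and its scores correlated with DNMT1 log2 CPM with r = 0.864 and rho = 0.857 over 8 libraries. The direction of such an axis is arbitrary and was set here so that this r is positive. After subtracting group means r was 0.779, and without samples 6 and 3, the libraries at the ends of the axis, it was 0.655. The axis itself partly separates the groups from which DNMT1 was chosen. Samples 5 and 6 lay at the end of the axis where DNMT1 was high and sample 3 at the end where it was low, whereas sample 7 had high DNMT1 with a score of -10.8, close to the prepubertal sample 8 (-12.1).

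Many genes shared the profile of DNMT1 over the libraries. Of 15512 other genes, 216 had r of at least 0.9 with it on log2 TMM-scaled CPM and 159 had r of -0.9 or lower. Together these are 375 genes, where the median tested gene had 49 such partners and 0.67% of tested genes had more. With group means subtracted, the counts were 208 and 182. Subtracting the means leaves fewer free values, so a high r arises more easily, and the partners of other genes were not counted on that scale. The counts before and after are therefore not directly comparable. With 8 libraries such correlations are descriptions of these pools.

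The study's tables pair identifiers with symbols for 52 genes including DNMT1, and the named genes below come from these. All were chosen by the study on these samples for a difference between the groups, so a correlation with DNMT1 across the groups is partly built in. The group-centred r, over the same 8 libraries, leaves the group means out. Of the 51 others, 8 had r of at least 0.9 and 7 had r of -0.9 or lower, but after centring only 1 in each direction, AGPAT5 and GULO.

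AGPAT5, an acyltransferase that makes phosphatidic acid for phospholipid synthesis, had the highest Pearson r with DNMT1 among the named genes over the 8 libraries, 0.976, with rho = 0.976. It was at 78.2, 57.8, 36.9 and 56.4 TMM-scaled CPM in the prepubertal samples 1, 2, 3 and 8 and at 61.3, 122, 116 and 81.2 in the pubertal samples 4, 5, 6 and 7. As for DNMT1, sample 3 was lowest, samples 5 and 6 were highest and sample 4 lay below sample 1. The group-centred r was 0.976, place 3 among the 15512 genes, and r was 0.978 without samples 3 and 7. Without samples 3 and 6, where DNMT1 was lowest and highest, r was 0.949, and PGD (0.979), ATP5PD (0.978), MARS1 (0.969) and NDUFS3 (0.968) came before AGPAT5. ATP5PD and NDUFS3, subunits of ATP synthase and of respiratory complex I, are named here after their values were seen. AGPAT5 varied more widely than DNMT1, with a log2 fold change of 0.73 (SE 0.24).

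MARS1, the cytosolic methionyl-tRNA synthetase, came next with r = 0.937 and rho = 1, that is, it ordered the 8 libraries exactly as DNMT1 did on the same scale. It was at 83.7, 70.1, 59.6 and 68.8 TMM-scaled CPM in samples 1, 2, 3 and 8 and at 72.9, 113, 155 and 90.95 in samples 4, 5, 6 and 7. Its highest value, in sample 6, was set further apart than that of DNMT1. Among the paired genes MARS1 was also the next above DNMT1 in mean TMM-scaled CPM, and GCSH the next below, a rank that is not corrected for length.

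AMT followed with r = 0.928 (group-centred 0.807), then UQCRC1, a core subunit of respiratory complex III, with r = 0.928 (0.833) and PCK2, the mitochondrial phosphoenolpyruvate carboxykinase, with r = 0.912 (0.83). UQCRC1 was at 255, 183, 183 and 172 TMM-scaled CPM in samples 1, 2, 3 and 8 and at 227, 281, 277 and 249 in samples 4, 5, 6 and 7. It shared with DNMT1 the high sample 1 among the prepubertal and the low sample 4 among the pubertal libraries.

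GULO, the enzyme of the last step of vitamin C synthesis, had the most opposite profile among the named genes, with r = -0.965, rho = -0.952 and a group-centred r of -0.909. It was at 10.1, 13.7, 14.6 and 12.5 TMM-scaled CPM in samples 1, 2, 3 and 8 and at 10.1, 5.93, 6.8 and 7.15 in samples 4, 5, 6 and 7. GULO was highest where DNMT1 was lowest (sample 3), and samples 1 and 4, next to each other in DNMT1, were also next to each other in GULO. ACP5, a lysosomal acid phosphatase, had r = -0.944 (group-centred -0.848) and ENO1, a glycolytic enolase, r = -0.923 (group-centred -0.798).

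**Figure D3:**
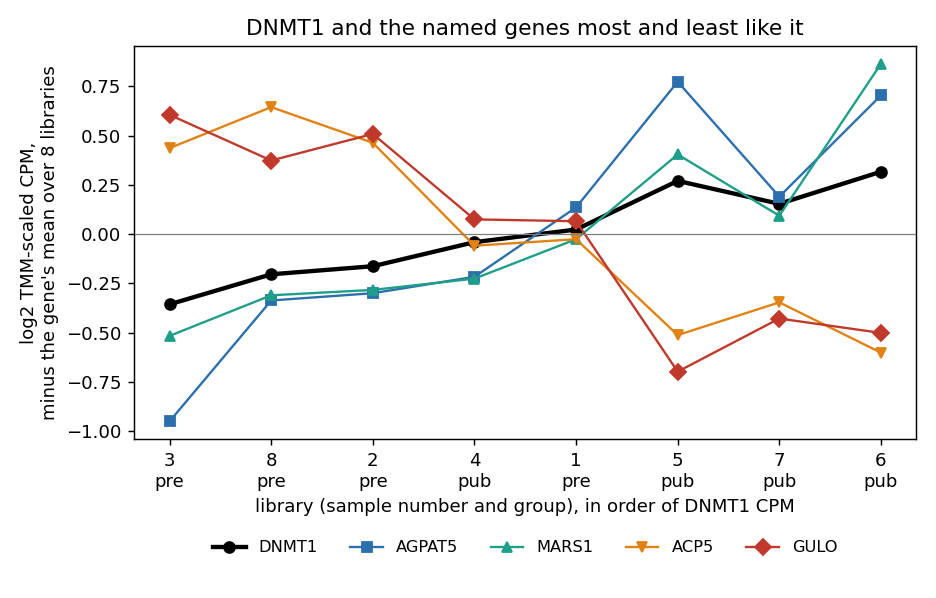
Log2 TMM-scaled CPM of DNMT1 (black) and of the named genes AGPAT5, MARS1, ACP5 and GULO, each minus its own mean over the 8 libraries (y axis), with libraries ordered by DNMT1 CPM (x axis, sample number and group). AGPAT5 and MARS1 run with DNMT1 and ACP5 and GULO run opposite to it, with samples 4 and 1 near the middle for each gene except AGPAT5 and MARS1 in sample 4, which lie lower.

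Among genes without a paired symbol, ENSBTAG00000018857 had the highest r with DNMT1, 0.983 (group-centred 0.971), followed by ENSBTAG00000031439 with 0.978 (0.943). The lowest were ENSBTAG00000005378 with -0.987 (-0.966) and ENSBTAG00000037456 with -0.985 (-0.96). ENSBTAG00000018857 ran from 47.5 TMM-scaled CPM in sample 3 to 70.5 in sample 6, a range close in proportion to that of DNMT1.

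DNMT1 uses S-adenosylmethionine as its methyl donor, which cells make from methionine with one-carbon units drawn in part from serine and glycine. Of the paired genes, 6 concern methyl groups and one-carbon units: DNMT1 itself, the histone H4 lysine methyltransferase KMT5A, the glycine cleavage proteins AMT and GCSH, the serine-producing phosphatase PSPH, and MARS1, which charges tRNA with methionine. The pubertal mean was higher in all 6. Their log2 fold changes had a median of 0.51, against -0.02 over all tested genes, of which 47.5% were higher. edgeR called none of them (0% of all genes tested), with all 5 genes besides DNMT1 at an unadjusted p under 0.05, as were 1681 of the 15513 tested. DESeq2 called 2, AMT and GCSH, against 0.919% of all genes. Because the study picked these genes on these samples, and the list was drawn up with their values known, their shared direction is no independent evidence of one. ALAS2, a paired gene outside the list that spends glycine on haem synthesis, named after its values were seen, went the other way in the tables' groups, with a log2 fold change of -1.25 (SE 0.40) and an r with DNMT1 of -0.743 (group-centred -0.404). The disputed sample 8 was its highest library, at 11.8 TMM-scaled CPM. Apart from the disputed libraries, ALAS2 was at 3.85 to 5.96 in samples 1, 2 and 3 and at 1.63 to 2.65 in samples 5, 6 and 7. The disputed sample 4 was at 4.615. Grouped by the labels, where samples 4 and 8 change places together, the log2 fold change of ALAS2 was -0.07 (SE 0.54).

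KMT5A, like DNMT1 an enzyme that spends methyl groups on chromatin, was at 43.6, 33.0, 35.8 and 32.4 TMM-scaled CPM in samples 1, 2, 3 and 8 and at 43.1, 50.8, 52.2 and 44.9 in samples 4, 5, 6 and 7. As with DNMT1, only samples 1 and 4 overlapped. Its log2 fold change was 0.40 (SE 0.12) and its r with DNMT1 0.910, or 0.752 after centring.

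In AMT, the aminomethyltransferase of glycine cleavage, the prepubertal samples 1, 2, 3 and 8 were at 61.6, 54.9, 48.4 and 50.9 TMM-scaled CPM and the pubertal samples 4, 5, 6 and 7 at 71.7, 73.1, 85.4 and 69.5. GCSH, which carries the aminomethyl group in the same complex, was at 55.1, 68.6, 44.7 and 45.4 and at 77.5, 164, 95.6 and 95.9 in the same order. With the groups of the study's tables both separated the groups, which DNMT1 did not; 424 of 15513 genes (2.73%) had groups that did not overlap and were higher in the pubertal group. They parted from DNMT1 in sample 4, which stood above sample 1 in AMT and GCSH. With the groups of the sample labels, where samples 4 and 8 change places, AMT and GCSH overlapped between the groups as well.

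PSPH had a log2 fold change of 0.54 (SE 0.17) and an r with DNMT1 of 0.887, with its highest value in sample 6 (67.9 TMM-scaled CPM) and its lowest in sample 3 (27.6). MARS1 had a log2 fold change of 0.61 (SE 0.20). In the 6 genes, sample 3 was lowest in all but KMT5A, where sample 8 was.

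Grouped by the labels, DNMT1 went from a log2 fold change of 0.35 to 0.27, and several of these genes moved further. That of AMT went from 0.47 to 0.24, that of KMT5A from 0.40 to 0.21 and that of PSPH from 0.54 to 0.30. GCSH went from 1.02 to 0.70, and MARS1 stayed close, at 0.58. All 6 kept a higher pubertal mean under the labels, at a smaller size.

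DNMT1 acts on replicating DNA, and 4 paired genes supply DNA and nucleotide precursors. These were the nucleoside diphosphate kinase NME1, the mitochondrial deoxyguanosine kinase DGUOK, the pyrimidine synthesis enzyme DHODH, and PGD of the pentose phosphate pathway. The pubertal mean was higher in all 4, and the median of their log2 fold changes was 0.50. edgeR called none of them (0% of all genes tested), with all 4 at an unadjusted p under 0.05, beside 1681 of 15513 over all genes. DESeq2 called 1, NME1, against 0.919% of all genes. NME1, DGUOK and DHODH, 3 of the 4, had groups that did not overlap and were higher in the pubertal group, against 2.73% of all genes. The same limit on how they were picked holds.

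Their likeness to DNMT1 differed widely once group means were removed. PGD kept a group-centred r of 0.79 with DNMT1 (0.881 uncentred) and DHODH 0.444 (0.817), whereas NME1 was at 0.101 (0.738) and DGUOK at -0.531 (0.505). For NME1 and DGUOK, the correlation with DNMT1 thus lay in the group means and not in the order of pools within a group. In DGUOK the pubertal sample 4 was the highest library (27.6 TMM-scaled CPM), while in DNMT1 it was the lowest pubertal one. Grouped by the labels, the log2 fold change went from 0.62 to 0.41 in NME1, from 0.37 to 0.18 in DGUOK, from 0.46 to 0.33 in DHODH and from 0.54 to 0.46 in PGD, and the groups of each of these genes overlapped.

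Among the 52 paired genes, 28 had a higher mean in the pubertal group. DNMT1 was at place 46 from the largest absolute log2 fold change, where the median of these genes was 0.54, and at place 11 from the highest mean TMM-scaled CPM, again without correction for length. It was among the paired genes with the smallest difference between the groups.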

How the data were processed

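Per library, the authors deposited 1 file of unnormalized read counts for Ensembl genes (release 105); their methods and the submitters' processing notes together name FastQC, Flexbar, STAR, HTSeq, DESeq2 and the build ARS-UCD1.2, and the notes also name RSEM. Tool versions and strand setting are not given in the sources used. HTSeq's summary lines stayed out of library sizes and tests: reads outside genes made up 35.8% to 54.1% and ambiguous reads 0.448% to 0.581% of uniquely mapped reads, and reads at several loci 11.5% to 17.2% of mapped reads.

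DNMT1 was taken by its identifier and scaled to CPM. Counts were fitted with edgeR 4.0.16 in R 4.3.3, after filterByExpr and TMM scaling, by glmQLFit and glmQLFTest without a covariate. DESeq2 1.42.0 was an alternative. Calls needed a Benjamini-Hochberg adjusted p below 0.05 together with more than 1.2 times difference in either direction. Log2 CPM used a prior count of 2. The standard error was the absolute log2 fold change divided by the square root of F. The steps were tested on simulated counts.

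Samples 4 and 8 have opposite groups in the labels and in the study's tables; the tables' groups were used and the labels' groups were an alternative, beside other scalings, filters, covariate, tool and left-out libraries. Pairs of libraries of one group differed by more than counting noise, with a chi-square of 21.5 to 53.1 for each degree of freedom, and were treated as replicates, as labelled; p-values measure the spread between these pools. Named genes were the members of 2 lists, the 5 most and 3 least correlated paired genes, up to 2 unpaired identifiers in each direction, and the paired neighbours in mean CPM; ALAS2, ATP5PD and NDUFS3 were added after their values were seen. DNMT1 and the lists were chosen with earlier results of these data known. Of 37063 reference genes, 0 list an Ensembl identifier, so names come only from the study's tables (52 identifiers), and lists of DNA methylation machinery and of cell type markers, sequences and lengths were not analysed here.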

Additional observations from a re-analysis of the deposited data

Results flagged for a closer look

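Of 38 groups of 4 libraries examined (the 16 genes with a symbol that the naming rule picked, and 3 library measures, in each group), 6 had a library far from the other 3 by the Dixon criterion, where chance gives about 1 in 20 groups. NME1 was at 27.7 TMM-scaled CPM in the pubertal sample 6, against 21.2 to 22.1 in the other pubertal libraries. UQCRC1 was at 255 TMM-scaled CPM in the prepubertal sample 1, against 172 to 183 in the others of its group. The share of uniquely mapped reads on genes was 45.4% in the prepubertal sample 3 and 52.1% in the pubertal sample 7, against 57.9% to 60.3% and 61.8% to 63.6% in the others of their groups. Sample 3 also had reads on 24203 genes, against 20439 to 20522, and 20112044 reads on genes, against 24164077 to 24831086. DNMT1 had no such library in either group.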

How the results depend on the processing

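DNMT1 was higher in the pubertal group in 20 of 20 alternative fits and was not called in any of them. The fits reuse the same libraries and the gene was chosen from this contrast, so the shared direction is no independent evidence. Its log2 fold change ranged from 0.27 (labels' groups) to 0.41 (6 libraries without conflict) over the fits with other settings, and from 0.29 (without sample 3) to 0.43 (without sample 1) with single libraries left out, and each value lay within the SD between pools (0.16) of 0.35. The fit without samples 3 and 7 was chosen after seeing the data.

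The number of genes called by edgeR, 0 with all 8 libraries (1681 at an unadjusted p under 0.05), was 11 in the 6 libraries without conflict, 2 with RLE scaling, 25 without a low-count filter, 1 with a filter of 10 CPM in 4 libraries, 6 with library sizes from uniquely mapped reads and 1 with robust dispersion; DESeq2 called 128. The edgeR count stayed at 0 with the labels' groups, upper-quartile scaling, no scaling factors, the share of reads on genes as covariate, and without samples 3 and 7. Leaving out one library at a time gave 0 to 8 calls: 8 when sample 4 was absent, 5 for sample 1, 4 for sample 8, 3 for sample 7 and 0 for each of the others. The cause was not tested. The median percentile of DNMT1, 89.1, was 92.0 over all genes and 85.7 over genes past the filter. Abundance per length was not run, because no length could be matched. Counting error of DNMT1 was at most 2.69% in a library, below the variation between pools of a group (8.15% and 9.17%), although reads may repeat a molecule.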
